A study of Mus musculus with 24 samples.

Results

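The giant, M-band and Z-disc scaffold genes of the sarcomere were followed in mouse ventricle: titin (Ttn), the myomesins Myom1 and Myom2, obscurin-like 1 (Obsl1), myopalladin (Mypn), filamin C (Flnc), the striated muscle kinase Speg, nebulette (Nebl) and nebulin (Neb). They were chosen by name, as the rows of the deposited array table whose single gene symbol in the platform annotation is one of these symbols. The choice was made with earlier results of these data known. These 9 genes were among 18819 genes tested, and they held 11 of the 21118 rows with 1 gene symbol, because Ttn and Nebl had 2 rows each. Each gene was represented by its brightest row over the 24 arrays, and the other row of Ttn and of Nebl is described separately. All comparisons below are within a row, since the brightness of different probes does not rank genes against each other.

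The study asked how executioner caspases shape heart development, and profiled ventricle tissue of 24 mouse hearts, labelled C57/Bl6 (C57BL/6J in the Methods), with 1 Affymetrix whole-transcript array per heart. Of the 4 groups of 6 hearts, 2 were wild type (WT), newborn at day 1 to 2 and young at day 30 (P30), and 2 were double knockout (KO) at the same ages. In KO hearts the caspase-7 gene is deleted in every tissue, whereas the floxed caspase-3 gene is removed in the myocardium by Nkx2.5::Cre, active from the onset of cardiac commitment, and stays floxed in cardiac fibroblasts. The study also mentions remnant caspase-3 protein in the neonatal KO heart, its Methods give slightly different age ranges from the labels, the Cre status of WT hearts is not stated, and sex, although balanced by the Methods, is not given for each array. Genotypes rest on the labels.

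The sarcomere is the contractile unit of striated muscle, in which thin actin filaments are anchored at the Z-disc and thick myosin filaments are held in register at the M-band. Titin runs from the Z-disc to the M-band as a molecular spring, myomesins and obscurin-like 1 tie titin and myosin together at the M-band, and nebulin-family proteins, myopalladin and filamin C organise the thin filament and the Z-disc. After birth the heart muscle cell stops dividing, enlarges and exchanges fetal sarcomere proteins for adult ones, and titin is spliced into shorter isoforms.

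Promoter windows were available for 7 of these genes, 14 windows in all, each with 250 bases before and 50 bases after an annotated start (RefSeq, build GRCm38.p6). The 4 windows printed here are 1 each of Ttn, Flnc, Speg and Myom1. They are shown because Ttn and Flnc were called lower in KO hearts at P30, as described below, and because all 4 hold a MEF2, CArG or M-CAT motif. Speg had 4 windows and Flnc 2, of which 1 each is printed. Obsl1 was also called lower at P30, and its window, without these motifs, is not printed. The Ttn window lies at chr2:76982498-76982797 on the minus strand, Flnc at chr6:29433006-29433305, Speg at chr1:75375047-75375346 and Myom1 at chr17:71019307-71019606, the last 3 on the plus strand. Capitals mark a MEF2 motif in Ttn and Speg, a CArG box in Myom1 and the M-CAT motif CATTCCT in Flnc.
Ttn: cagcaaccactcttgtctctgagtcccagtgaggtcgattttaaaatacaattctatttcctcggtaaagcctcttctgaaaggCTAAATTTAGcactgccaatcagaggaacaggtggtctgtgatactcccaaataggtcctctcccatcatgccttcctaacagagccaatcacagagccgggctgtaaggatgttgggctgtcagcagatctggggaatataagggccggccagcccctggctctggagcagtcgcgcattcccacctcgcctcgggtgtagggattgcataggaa
Flnc: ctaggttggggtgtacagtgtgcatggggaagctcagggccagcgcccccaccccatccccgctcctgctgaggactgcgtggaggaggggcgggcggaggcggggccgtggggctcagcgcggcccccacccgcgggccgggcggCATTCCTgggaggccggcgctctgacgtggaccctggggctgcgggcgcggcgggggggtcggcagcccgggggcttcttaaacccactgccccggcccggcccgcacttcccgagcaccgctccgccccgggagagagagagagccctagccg
Speg: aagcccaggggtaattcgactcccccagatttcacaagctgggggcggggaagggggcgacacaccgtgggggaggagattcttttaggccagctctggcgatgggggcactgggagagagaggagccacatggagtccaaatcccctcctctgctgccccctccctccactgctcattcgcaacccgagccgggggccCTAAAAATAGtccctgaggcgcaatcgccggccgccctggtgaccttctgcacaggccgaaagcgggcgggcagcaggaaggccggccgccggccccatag
Myom1: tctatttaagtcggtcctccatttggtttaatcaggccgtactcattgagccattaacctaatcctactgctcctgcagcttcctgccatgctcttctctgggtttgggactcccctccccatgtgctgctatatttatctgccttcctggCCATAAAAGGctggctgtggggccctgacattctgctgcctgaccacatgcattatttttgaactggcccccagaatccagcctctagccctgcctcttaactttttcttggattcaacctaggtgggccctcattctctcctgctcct
The first base of the motif lay 166 bases before the start in Ttn, 104 in Flnc, 51 in Speg and 99 in Myom1. Both strands of all 32851 windows of the reference were searched. A MEF2 motif was present in 1.86% of them, a CArG box in 1.63% and M-CAT in 5.36%. Among the 14 windows of these genes, 2 held MEF2, 2 held CArG and 4 held M-CAT, the last in 3 genes, since the 2 Flnc windows overlap and share 1 match. The windows of Obsl1 and Mypn held none of the 3 motifs. A match describes letters in the window and is not a binding site.

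Array medians ran from 4.24 to 4.50 on the log2 scale and no pair of arrays held identical values. The mean of 10 ventricular muscle markers lay between 11.18 and 11.46 on all arrays. Several arrays stood apart on other markers or on genotype. The mean of 11 atrial markers spanned 5.65 to 8.90 in P30 WT and 6.19 to 9.53 in P30 KO hearts. The newborn KO array numbered 6 had a skeletal muscle marker mean of 5.04, where the remaining newborn KO arrays gave 3.73 to 3.86. A score over 77 genes that separated the genotypes at P30 was scaled so that the genotype difference at P30 equals 1, and centred between the newborn groups. Array 4 of the newborn WT group had a score of 0.165, among the remaining newborn KO arrays at 0.0861 to 0.292, and array 4 of the newborn KO group had -0.197, among the remaining newborn WT arrays at -0.238 to -0.0393. Newborn and interaction counts are given with and without both newborn arrays numbered 4. The KO rise and the newborn difference of Neb are given with and without newborn KO array 6. Changes of single genes with age are not given without both arrays numbered 4. Because whole tissue was measured, fewer cells of a type and less RNA per cell cannot be told apart.

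**Figure D1:**
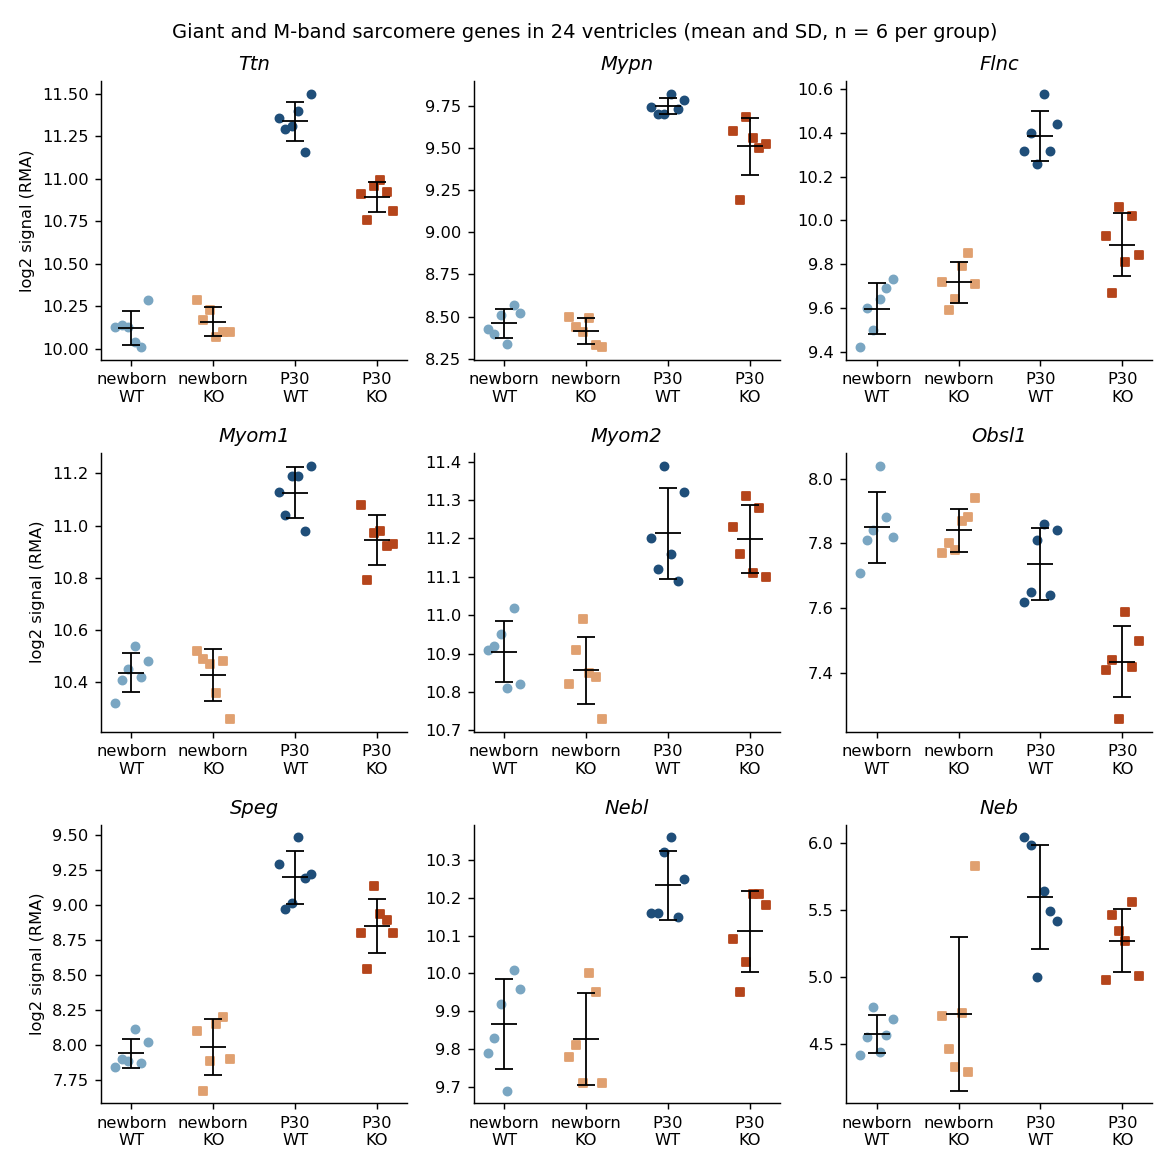
Log2 signal (RMA) of the 9 genes in newborn and P30 hearts, with 1 point per array, a long bar for the mean and short bars for the SD (n = 6 per group, vertical scales differ between panels). P30 WT arrays sat above newborn WT arrays in every panel but that of Obsl1, and the P30 KO arrays of Ttn, Flnc, Mypn and Obsl1 sat below all P30 WT arrays.

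In WT ventricle, 8 of the 9 genes rose between birth and P30 and none fell. Over all genes tested, 19.2% rose and 27.9% fell in the same comparison. The median log2 difference of the 9 genes was 0.79, against 0.002 for all genes. The 8 risers had every P30 array above every newborn array, a separation seen in 11.5% of all genes. In KO ventricle the same 8 genes rose and Obsl1 fell, where 34.0% of all genes rose and 25.0% fell. The median log2 difference of the 9 genes was 0.51, against 0.098 for all genes, and 5 of the 8 separated without overlap, against 15.9% of all genes. Markers of other cell types changed with age too. In WT hearts 6 of 7 fibroblast, 7 of 12 atrial and 5 of 6 endothelial markers fell, and 0, 1 and 1 rose. Their median log2 differences were -1.70, -1.08 and -0.34. In KO hearts 4, 2 and 3 fell and 1, 2 and 0 rose, with medians of -0.84, -0.20 and -0.17. The part of these markers in the age differences was not tested.

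Titin, the spring of the sarcomere, had signals of 10.01, 10.13 and 10.29 in newborn WT hearts (lowest, median and highest array), and of 11.16, 11.34 and 11.50 in P30 WT hearts. The arrays of the 2 ages did not overlap. Ttn rose by 1.21 on the log2 scale (SE 0.06, adjusted p = 7.54e-14), a 2.31-fold difference. In KO hearts Ttn went from 10.07, 10.13 and 10.29 at birth to 10.76, 10.92 and 10.99 at P30, again without overlap. That rise was 0.73 on the log2 scale (SE 0.06, adjusted p = 8.65e-10), or 1.66-fold. The order of the Ttn signal was therefore P30 WT, P30 KO and then both newborn groups, which overlapped each other.

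At the M-band, Myom1, which cross-links myosin filaments, rose in both genotypes. Its WT signals moved from 10.32, 10.44 and 10.54 to 10.98, 11.16 and 11.23, a log2 difference of 0.69 (SE 0.06, adjusted p = 1.05e-09). Its KO signals moved from 10.26, 10.48 and 10.52 to 10.79, 10.95 and 11.08, a log2 difference of 0.51 (SE 0.06, adjusted p = 1.59e-07). In neither genotype did the ages overlap. Myom2, the myomesin of fast and adult heart muscle, rose as well. Its WT signals were 10.81, 10.91 and 11.02 at birth and 11.09, 11.18 and 11.39 at P30, a log2 difference of 0.31 (SE 0.06, adjusted p = 0.000164). The KO signals were 10.73, 10.84 and 10.99 at birth and 11.10, 11.20 and 11.31 at P30, a log2 difference of 0.34 (SE 0.06, adjusted p = 5.87e-05).

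Obsl1, whose protein joins titin to myomesin and also belongs to a growth-linked cullin-7 complex, ran the other way. Newborn WT hearts gave 7.71, 7.83 and 8.04 and P30 WT hearts 7.62, 7.73 and 7.86, which overlapped, with a log2 difference of -0.11 (95% interval -0.25 to 0.02, adjusted p = 0.16). Newborn KO hearts gave 7.77, 7.83 and 7.94 and P30 KO hearts 7.26, 7.43 and 7.59. The KO arrays did not overlap between the ages, and Obsl1 fell by 0.40 on the log2 scale (SE 0.06, adjusted p = 1.19e-05).

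Among the Z-disc genes, Mypn, whose protein connects titin-associated partners with alpha-actinin, rose in both genotypes. WT signals were 8.34, 8.47 and 8.57 at birth and 9.70, 9.74 and 9.82 at P30, with no overlap and a rise of 1.28 (SE 0.07, adjusted p = 5.16e-14), or 2.44-fold. KO signals were 8.32, 8.43 and 8.50 at birth and 9.19, 9.54 and 9.68 at P30, with no overlap and a rise of 1.09 (SE 0.07, adjusted p = 1.24e-12), or 2.13-fold. Flnc, an actin cross-linker of the Z-disc and the intercalated disc, rose in both genotypes, with a difference between them that is tested below. WT signals rose from 9.42, 9.62 and 9.73 to 10.26, 10.36 and 10.58, which did not overlap (log2 difference 0.79, SE 0.07, adjusted p = 1.88e-09). KO signals went from 9.59, 9.71 and 9.85 to 9.67, 9.89 and 10.06, which overlapped, with a log2 difference of 0.17 (SE 0.07, adjusted p = 0.0437). The KO rise of Flnc lost its call without any one of 7 arrays, with adjusted p from 0.0611 to 0.113.

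Speg, a kinase of the myosin light chain kinase family found at the junctional membranes, had WT signals of 7.84, 7.89 and 8.11 at birth and of 8.97, 9.21 and 9.48 at P30. The ages did not overlap, and the log2 difference was 1.26 (SE 0.10, adjusted p = 1.55e-10), or 2.39-fold. In KO hearts it went from 7.67, 8.00 and 8.20 to 8.54, 8.85 and 9.13, again without overlap, with a log2 difference of 0.87 (SE 0.10, adjusted p = 1.01e-07), or 1.82-fold.

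Nebulette, the short nebulin relative of the cardiac Z-disc, rose in both genotypes. Its WT signals were 9.69, 9.88 and 10.01 at birth and 10.15, 10.21 and 10.36 at P30, a rise of 0.37 (SE 0.07, adjusted p = 8.36e-05) without overlap. Its KO signals were 9.71, 9.80 and 10.00 at birth and 9.95, 10.14 and 10.21 at P30, a rise of 0.28 (SE 0.07, adjusted p = 0.0013) with overlap. Nebulin itself, the thin filament ruler of skeletal muscle, gave signals near the array medians (4.24 to 4.50) in most newborn hearts and above them at P30. WT hearts gave 4.42, 4.56 and 4.78 at birth and 5.00, 5.57 and 6.04 at P30, which did not overlap, with a rise of 1.02 (SE 0.20, adjusted p = 0.000127). KO hearts gave 4.29, 4.59 and 5.83 at birth and 4.98, 5.31 and 5.56 at P30, with a rise of 0.54 (SE 0.20, adjusted p = 0.023) and overlapping ages. The newborn KO array at 5.83 was the one with the high skeletal marker mean, and its next highest neighbour stood at 4.73. On that array the skeletal genes Tnnt3, Atp2a1 and Myh8 had signals of 7.60, 7.40 and 7.30. Without it the KO rise of Neb was 0.77. That call was lost without any one of 4 other arrays, with adjusted p from 0.0518 to 0.0606.

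**Figure D2:**
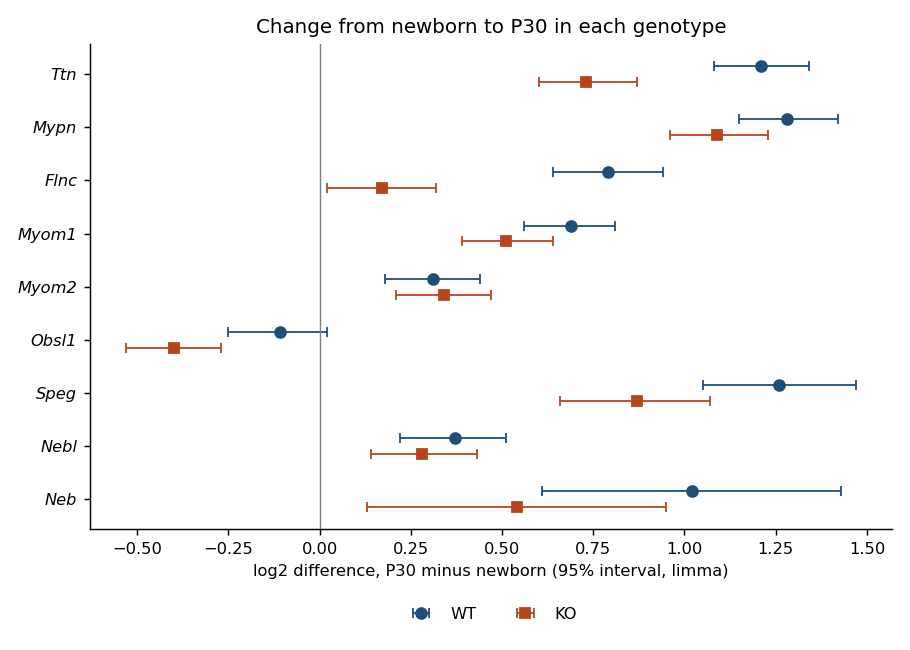
Log2 difference between P30 and newborn ventricle for each gene, WT in blue and KO in red, with 95% intervals from limma (n = 6 arrays per group). The intervals of WT and KO did not overlap for Flnc (0.79 in WT and 0.17 in KO), Ttn (1.21 and 0.73) or Obsl1 (-0.11 and -0.40). In the limma interaction test Flnc passed (adjusted p = 0.0303), whereas Ttn (0.0594) and Obsl1 (0.248) did not.

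In newborn hearts 0 of the 9 genes differed between KO and WT by limma, where 0% of all genes passed, and 0 of the 9 had an unadjusted p under 0.05 (1707 of all genes did). Log2 differences ran from -0.05 to 0.15 and adjusted p from 0.635 to 0.98. For Ttn the difference was 0.03 (95% interval -0.10 to 0.17), for Obsl1 -0.01 (-0.14 to 0.12) and for Flnc 0.12 (-0.03 to 0.27). The widest interval was that of Neb, 0.15 (-0.26 to 0.56), and without the newborn KO array numbered 6 the difference of Neb was -0.07. The newborn arrays of KO and WT overlapped for every one of the 9 genes. Without both newborn arrays numbered 4, 0 of the 9 genes passed, although the number over all genes went from 0 to 482.

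At P30 all 9 genes had a lower mean in KO than in WT hearts, and Ttn, Flnc and Obsl1 fell past the threshold. That is 3 of 9, where 0.351% of all genes were called lower. Their median log2 difference was -0.30, against 0.033 for all genes. In Ttn, Flnc, Obsl1 and Mypn, 4 of 9, all KO arrays lay below all WT arrays, a separation seen in 0.404% of all genes.

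The highest P30 KO array of Ttn stood at 10.99 and the lowest P30 WT array at 11.16. The difference was -0.44 on the log2 scale (SE 0.06, 95% interval -0.57 to -0.31, adjusted p = 0.000948), 1.36-fold lower in KO. For Flnc the highest KO array was at 10.06 and the lowest WT array at 10.26, with a difference of -0.50 (SE 0.07, 95% interval -0.65 to -0.35, adjusted p = 0.001), 1.41-fold lower. For Obsl1 these arrays were at 7.59 and 7.62, with a difference of -0.30 (SE 0.06, 95% interval -0.43 to -0.17, adjusted p = 0.0207), 1.23-fold lower. The gap of Obsl1 was narrow, and its call was lost without P30 WT array 3, 4 or 6, with adjusted p from 0.0528 to 0.0601, and in a fit of only the 12 P30 arrays, with an adjusted p of 0.162.

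Mypn separated the genotypes, with its highest KO array at 9.68 and its lowest WT array at 9.70, yet its difference of -0.24 (95% interval -0.37 to -0.10) had an adjusted p of 0.0828. Speg differed by -0.34 (-0.55 to -0.14, adjusted p = 0.0929) with overlapping arrays. Without P30 WT array 2 or without P30 KO array 3, both genes passed and 5 of the 9 genes were called. Over all genes, 192 were called with every array and 108 to 806 with 1 array left out, so the count of 5 does not single out these genes. P30 WT array 2 had the highest atrial marker mean of its group (8.90) and P30 KO array 3 the lowest of its group (6.19). The part of the atrial signal in the added calls was not tested. Myom1 differed by -0.18 (-0.31 to -0.05, adjusted p = 0.147), Nebl by -0.12 (-0.26 to 0.02, adjusted p = 0.423) and Neb by -0.33 (-0.74 to 0.08, adjusted p = 0.463). The smallest difference was that of Myom2, -0.02, with an interval from -0.14 to 0.11.

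**Figure D3:**
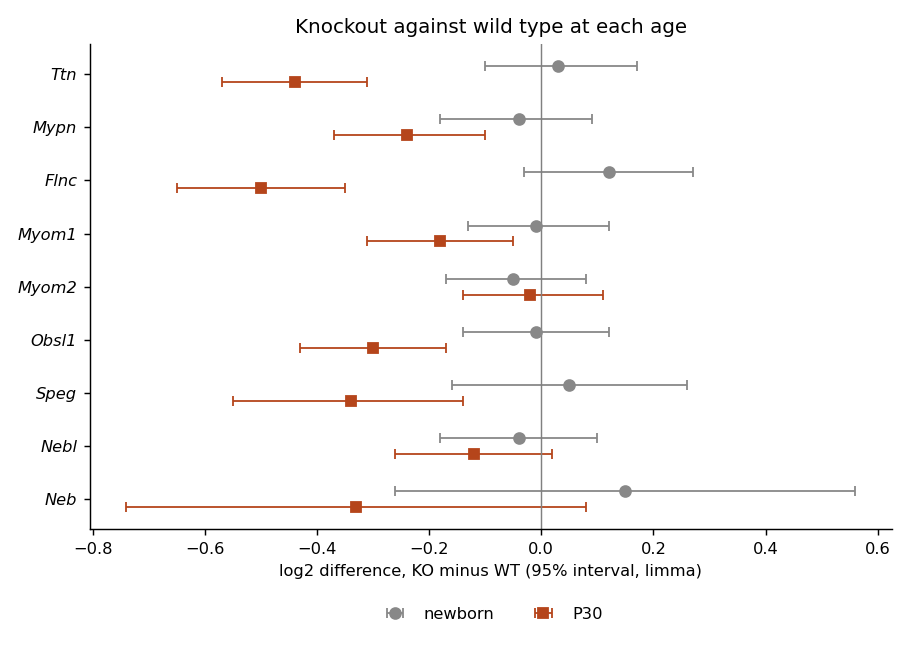
Log2 difference between KO and WT ventricle for each gene, newborn in grey and P30 in red, with 95% intervals from limma (n = 6 arrays per group). Newborn intervals of all 9 genes include 0, and the P30 intervals of Ttn, Flnc, Obsl1, Mypn, Speg and Myom1 lie below 0, of which Ttn, Flnc and Obsl1 passed the adjusted threshold.

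Whether the knockout difference itself changed between the ages was tested as an interaction, which equals the difference between the KO and the WT rise. Flnc was the 1 gene of the 9 that passed, where 2 of 18819 genes, 0.0106%, did. Its interaction was -0.62 on the log2 scale (SE 0.10, 95% interval -0.83 to -0.40, adjusted p = 0.0303), and it lost the call without any one of 10 arrays (adjusted p 0.0532 to 0.0872) and with median centring (-0.70, adjusted p = 0.0667), under which Ttn passed instead (-0.55, adjusted p = 0.0458). Ttn had an interaction of -0.48 (SE 0.09, adjusted p = 0.0594), and passed without any one of 4 arrays (0.0299 to 0.0469). Obsl1 and Speg gave -0.29 (adjusted p = 0.248) and -0.39 (adjusted p = 0.287), and for Myom2 the value was 0.03 (adjusted p = 0.906). Over the 9 genes the median was -0.29, against 0.084 for all genes. Without both newborn arrays numbered 4, Ttn passed together with Flnc, while the number over all genes went from 2 to 79. With 1 array left out, the number over all genes ran from 1 to 24.

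Markers of other cell types moved in the same hearts. All 12 atrial markers measured were higher on average in P30 KO than in P30 WT hearts, by 0.20 to 3.95 on the log2 scale, and 0 passed the threshold. The mean of 11 of them (Nppa left out) was 5.65 to 8.90 over the WT arrays and 6.19 to 9.53 over the KO arrays. The smooth muscle mean of 7 genes was 7.10 to 8.79 in WT and 7.34 to 9.29 in KO hearts, and the fibroblast mean of 7 genes 7.76 to 9.39 and 7.85 to 9.65, with 0 of 7 passing in each list. The mean of the 10 ventricular markers was 11.27 to 11.41 in WT and 11.21 to 11.31 in KO hearts, and 1 of the 10, Ryr2, was called lower. The part of the smooth muscle, fibroblast and ventricular markers in the P30 differences was not tested.

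The 12 P30 arrays were also fitted with the atrial mean as a covariate. The difference was -0.37 for Ttn (SE 0.09, adjusted p = 0.263), -0.44 for Flnc (SE 0.10, 0.246) and -0.29 for Obsl1 (SE 0.09, 0.417). For Neb, Speg, Mypn, Myom1, Nebl and Myom2 it was -0.48, -0.18, -0.15, -0.10, -0.09 and 0.05. In this fit 0 of the 9 genes and 9 of all genes passed. The P30 KO array with the highest atrial mean, array 2 at 9.53, was also the lowest P30 KO array in 6 of the 9 genes. P30 KO array 5, with an atrial mean of 9.44, was the lowest in 0 genes and the highest in 2. The P30 WT array with the highest atrial mean, array 2 at 8.90, was the lowest P30 WT array in 2 genes. P30 WT array 5, next at 7.81, was the lowest in 4 genes. P30 WT array 4, with the lowest atrial mean of its group (5.65), was the highest in 5 genes. P30 WT array 3, at 5.69, was the highest in 1 and the lowest in 2. P30 KO array 3, with the lowest atrial mean of its group (6.19), was the highest in 4 genes and the lowest in 1.

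**Figure D4:**
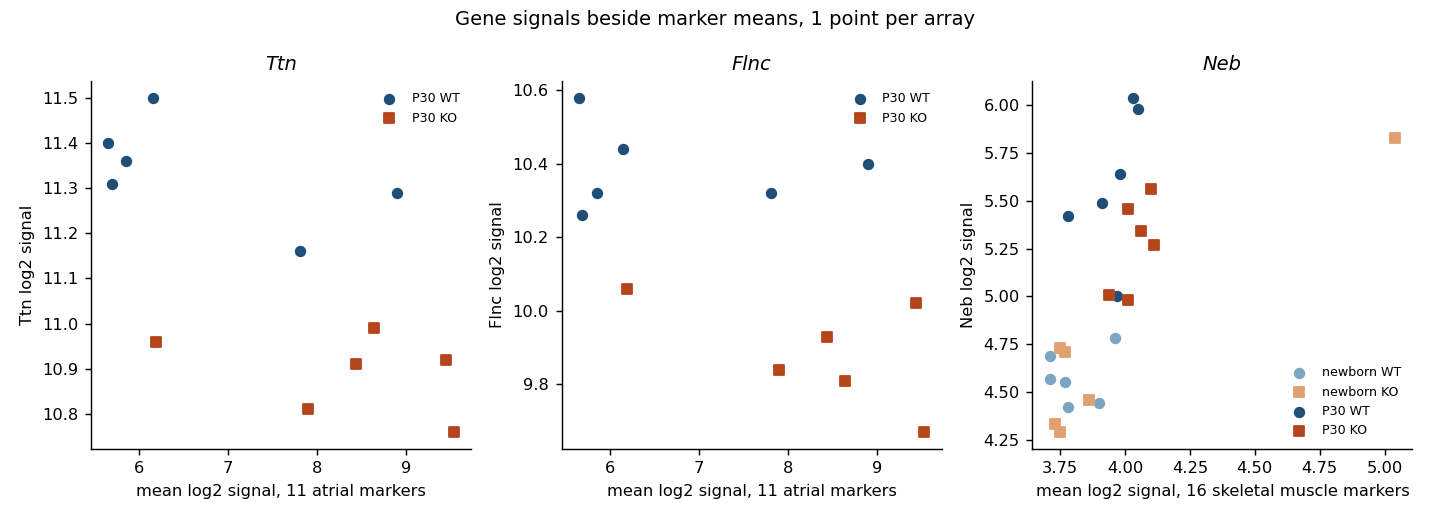
Log2 signal of Ttn and Flnc against the mean of 11 atrial markers in the 12 P30 arrays, and of Neb against the mean of 16 skeletal muscle markers in all 24 arrays, with 1 point per array. The atrial means of P30 KO arrays run from 6.19 to 9.53 and those of P30 WT arrays from 5.65 to 8.90, and 1 newborn KO array stands apart in the Neb panel, at a skeletal mean of 5.04.

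The second row of Ttn did not follow the first. Its signals were 7.43, 8.00 and 8.41 in newborn WT, 7.92, 8.06 and 8.35 in newborn KO, 7.14, 7.74 and 8.73 in P30 WT and 7.22, 7.50 and 8.44 in P30 KO hearts. All groups overlapped, and the SD at P30 was 0.54 in WT and 0.44 in KO hearts, against 0.11 and 0.09 for the brightest row. The log2 difference with age was -0.10 in WT (SE 0.21, adjusted p = 0.731) and -0.49 in KO hearts (adjusted p = 0.0516), and that between genotypes was -0.21 at P30 (95% interval -0.65 to 0.23, adjusted p = 0.704). With the mean of both rows standing for Ttn, the WT rise kept its call, the KO rise was 0.12 (adjusted p = 0.402) and the P30 genotype difference -0.33 (adjusted p = 0.208). Which part of the titin transcript each row reads is not given in the sources used here.

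The second row of Nebl rose with age in both genotypes, as the first did. Its ages overlapped in WT and not in KO hearts, the reverse of the first row, which entered the counts of genes without overlap. It rose by 0.27 in WT (adjusted p = 0.00137) and 0.38 in KO hearts (adjusted p = 3.39e-05), and the genotype difference at P30 was 0.01 (95% interval -0.13 to 0.14).

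**Figure D5:**
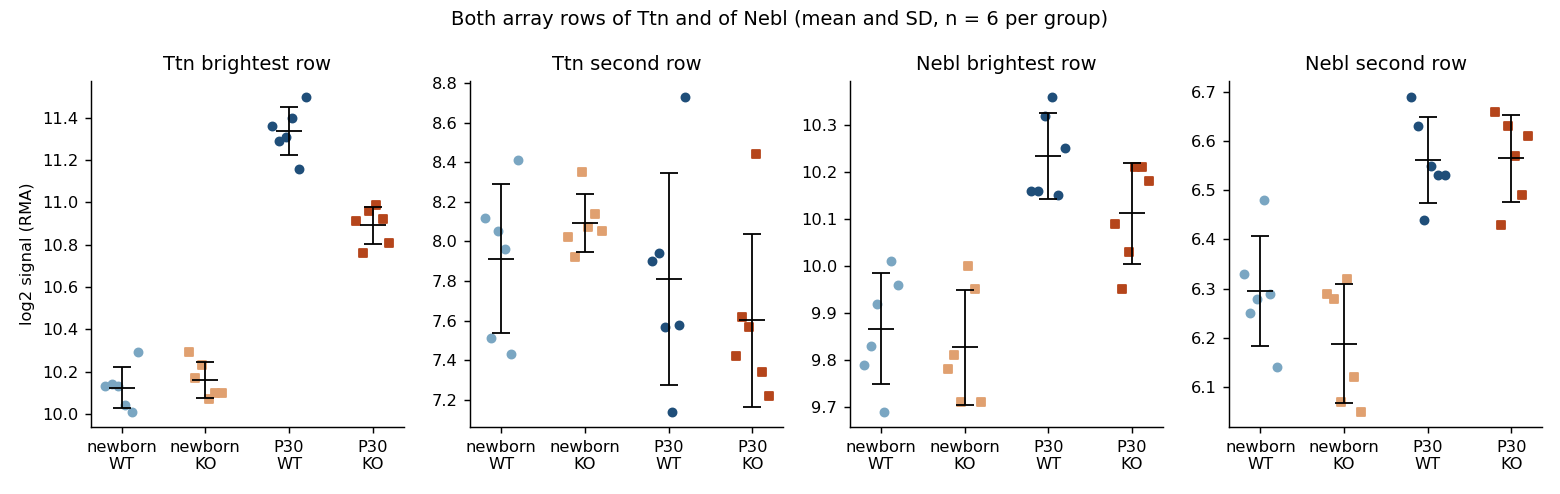
Log2 signal (RMA) of both rows of Ttn and of Nebl in the 4 groups, with 1 point per array, mean and SD (n = 6 per group). The brightest Ttn row separates the ages and, at P30, the genotypes, whereas the second Ttn row overlaps in all 4 groups. Both Nebl rows rise with age.

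The wider network of these proteins, 85 other measured genes in 8 lists, changed mostly with age. With age 40 (47.1%) rose and 21 (24.7%) fell in WT hearts, where 19.2% of all genes rose and 27.9% fell. In KO hearts 46 (54.1%) rose and 18 (21.2%) fell, where 34.0% of all genes rose and 25.0% fell. Between genotypes 0 of 85 passed in newborn hearts. At P30 1 of 85 was called higher and 1 lower (1.18% each), where 0.670% of all genes were called higher and 0.351% lower. With 1 gene each, these shares say little about the network. Pdlim3, an actinin-binding LIM protein of the Z-disc, was higher in KO by 0.78 (adjusted p = 0.0363), and the calcium release channel Ryr2 was lower, by a log2 difference of -0.24 (adjusted p = 0.0365). The P30 arrays of Pdlim3 overlapped, at 8.52 to 9.72 in WT and 8.75 to 9.98 in KO hearts. Those of Ryr2 did not, at 11.59 to 11.81 in WT and 11.37 to 11.53 in KO hearts.

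Of 15 titin anchors and signalling partners, 6 rose and 3 fell in WT hearts with age. These and the following counts in WT hearts stand against 19.2% of all genes that rose and 27.9% that fell. The muscle ring-finger gene Trim54 rose by 3.02 and the Z-disc cap of titin, Tcap, was 2.82-fold higher, while Trim55 fell by 1.23 on the log2 scale and Fhl2 rose by 0.63. Trim63, the third muscle ring-finger gene, had a log2 difference of 0.06 (adjusted p = 0.61) in WT and of 0.28 (adjusted p = 0.00515) in KO hearts. Among 12 splicing factors known or proposed to act on titin, 4 rose and 7 fell. Ptbp1, a splicing repressor, fell by 0.95 on the log2 scale, Hnrnpl and Srsf10 fell by 0.58 and 0.47, and Rbfox1 rose by 0.47. Rbm20, the main titin splicing repressor of the heart, fell by 0.29 (adjusted p = 0.00123) in WT and by 0.36 (adjusted p = 0.000129) in KO hearts, and its genotype difference at P30 was -0.17 (adjusted p = 0.228).

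In the M-band list, 5 of 10 genes rose and 3 fell in WT hearts. The fetal myosin heavy chain Myh7 fell by 4.34 on the log2 scale, and Ccdc8 and Cul7, whose proteins form a complex with obscurin-like 1, fell by 2.24 and 1.16. The ubiquitin ligase gene Fbxo32 rose by 0.89, and Myom3, the remaining myomesin, by 0.24 (adjusted p = 0.0452). In the nebulin and thin filament list, 8 of 16 rose and 2 fell, led by the actin-binding Xirp2 at 4.70, the pointed-end capping gene Tmod4 at 2.58, the leiomodin Lmod2 at 1.38 and Kbtbd13 at 0.96.

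Of 15 filamin C partners, 11 rose and 2 fell in WT hearts. Myotilin (Myot) rose by 2.65, the small heat shock gene Hspb8 by 2.62 and Cmya5 by 2.27, and Myoz1 fell by 2.34 on the log2 scale. In the myopalladin family and its partners, 2 of 5 rose and 1 fell, the latter Pdlim3, by 1.53 on the log2 scale. Of 8 Speg-related kinases and partners, 5 rose and 0 fell, with Mtm1, a phosphatase that binds the Speg protein, at 0.99, Ryr2 at 0.79 and the junctional membrane gene Jph2 at 0.68. Of 8 sarcomere chaperones, 2 rose and 3 fell, with Bag3, which handles damaged filamin, at 1.07 and the chaperonin subunit Cct2 at -0.42.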

How the data were processed

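Ventricle RNA of 24 mouse hearts was hybridised to Affymetrix whole-transcript arrays. RMA was used by the authors to turn the probe readings into the deposited log2 signals, for which the submitters' notes on processing list oligo 1.22, limma 3.14 and R 2.15. A genome build for the array is not given in the sources used here. Groups were taken from the labels. Of 35017 rows of the table, 21118 named 1 gene in the platform annotation, 1735 named several and 12164 none, and 21085 of those with 1 gene were matched by Entrez identifier to the GRCm38.p6 RefSeq annotation.

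Each of 18819 genes was represented by its brightest row. All 24 arrays entered a limma model (version 3.58.1, R 4.3.3) with a mean for each group and 20 residual degrees of freedom, with moderated variances, Benjamini-Hochberg adjustment over all genes tested and a threshold of 0.05 on the adjusted p. This fit gave the adjusted p-values. For both rows of Ttn and Nebl the model was fitted to all 21118 rows. Precision is limited by the number of arrays. The procedure was tested on simulated data. Figures were drawn with matplotlib 3.10.9 and motifs were searched with Python 3.11.15.

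The 9 genes, the lists of their partners and the marker lists were chosen with earlier results of these data known. Named partners were, from each list, up to 4 called genes with the largest log2 difference in a comparison, plus Myom3, Rbm20 and Trim63, and for Ttn the 5 genes of highest correlation. Alternatives were weights for arrays, centring on the median, quantile normalization anew, a robust fit with a variance trend, a filter on dim genes, a block for the replicate number, averaged rows per gene, all rows tested, a fit to just the 12 arrays compared, omission of both newborn arrays numbered 4, stricter thresholds, an atrial covariate at P30 and leaving out each array in turn. The sources used here give no slide, batch or scan date, and sex was not in the model. Some genes are not reported here.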

Additional observations from a re-analysis of the deposited data

Results flagged for a closer look

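Among 44 groups of 6 arrays, 3 held an array far from the others by Dixon's criterion, and chance gives about 1 such group in 20. Neb stood at 5.83 on newborn KO array 6, with the next array at 4.73. Mypn stood at 9.19 on P30 KO array 2, with the next at 9.50. The second row of Ttn stood at 8.44 on P30 KO array 4, with the next at 7.62.

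The knockout difference of Flnc differed between the ages by the limma interaction test, at -0.62 on the log2 scale (adjusted p = 0.0303).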

How the results depend on the processing

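In WT hearts 8 of the 9 genes were called with age under every alternative run except the 1.5-fold requirement, which left 6 (without Nebl and Myom2). In newborn hearts 0 differed between genotypes under every alternative run. In KO hearts 9 were called with age, 3 (Ttn, Mypn and Speg) when a 1.5-fold difference was also required, and 7 to 9 when 1 array was left out. Flnc lost this call with median centring, quantile normalization, only the 12 arrays compared and an adjusted p under 0.01, and Neb with the last. The 3 calls at P30 became 0 with the 1.5-fold requirement, 0 with the atrial mean as a covariate and 2 to 5 with 1 array left out. Mypn was added with median centring or quantile normalization, and Obsl1 was lost with only the 12 arrays compared or an adjusted p under 0.01. The interaction count of 1 became 2 (Ttn and Flnc) without dim genes, with a new quantile normalization, with a variance trend and robust moderation, with array weights and without both newborn arrays numbered 4. With median centring Ttn was called and Flnc was not. The interaction count became 0 at an adjusted p under 0.01 and 0 to 2 with 1 array left out. Counts over all genes moved as well. In the settings other than leaving out 1 array they ran from 9 (atrial covariate) to 288 (median centring) at P30, against 192 in the main fit. For the interaction they ran from 1 to 79 (without both newborn arrays numbered 4), against 2 in the main fit. Calls gained or lost among the 9 genes therefore do not single these genes out. With the mean of its 2 rows Ttn lost its calls with age in KO hearts and at P30. The cause was not tested.

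Of the 2 Ttn rows, 1 was called with age in WT and 0 in newborn hearts throughout. In KO hearts with age the count went from 1 to 2 with median centring, array weights or only the 12 arrays compared, and was 1 to 2 with 1 array left out. At P30 it was 1, became 0 with the 1.5-fold requirement and stayed 1 with 1 array left out. For the interaction it was 0, became 1 with a new quantile normalization, robust moderation, array weights or without both newborn arrays numbered 4, and was 0 to 1 with 1 array left out.

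Signs turned only for differences near 0. The newborn difference became 0.01 for Obsl1 and 0.02 for Myom1 with median centring, 0.01 for both with a new quantile normalization, 0.03 for Myom1 with array weights, and 0.02 for Obsl1 and 0.03 for Myom1 without both newborn arrays numbered 4. With 1 array left out it ran from -0.04 to 0.03 for Obsl1, -0.03 to 0.03 for Myom1 and -0.07 to 0.24 for Neb. Myom2 at P30 became 0.05 with the atrial covariate and ran from -0.04 to 0.02 with 1 array left out. The interaction became -0.05 (median centring) and 0.00 (quantile) for Myom2 and 0.01 for Nebl with the mean of its rows. The second Ttn row with age in WT ran from -0.29 to 0.03 with 1 array left out.

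Replicate numbers were not used in the main fit. Of 36 pairs of same-numbered arrays, 15 had deviations correlated above 0.1, with r from -0.44 to 0.64. Differently numbered arrays were not compared, so these values do not decide whether the numbers pair the arrays. With the replicate number as a block, 8 genes were called with age in WT, 9 in KO, 0 between newborn genotypes, 4 at P30 (Speg added) and 0 for the interaction, where Flnc kept its value of -0.62 but had an adjusted p of 0.0766. The values of Neb ran from 4.29 to 6.04, against array medians of 4.24 to 4.50.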

Other observations

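The 5 genes whose signal followed that of Ttn most closely over the 24 arrays, after the group means were removed, were Sacm1l (Pearson r = 0.73), Ralgapa2 (0.70), Pacs2 (0.69), Kctd9 (0.68) and Snx19 (0.67). At P30 their log2 differences between KO and WT hearts ran from -0.31 for Ralgapa2 (adjusted p = 0.0546) to 0.02 for Sacm1l (adjusted p = 0.926). Over the 36 pairs of the 9 genes r ran from -0.54 (Neb and Myom1) to 0.73 (Flnc and Speg), with a median of 0.25 and 25 pairs above 0. The points of a pair share their array, so these values describe the 24 arrays and carry no test.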
